A study of Mus musculus with 8 samples.

Results

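The apelin, CXCR4 and PDGF receptor systems were followed in mouse embryonic stem (ES) cells as 7 genes that encode 3 pairs of ligand and receptor together with the alternative PDGF receptor. They are Aplnr and Apln (the apelin receptor and its peptide ligand), Cxcr4 and Cxcl12 (a chemokine receptor and its ligand), and Pdgfra, Pdgfrb and Pdgfa (the PDGF receptors alpha and beta and the ligand PDGF-A). Members were all probe sets annotated with 1 of these symbols and no other gene, which gave 14 of the 45101 probe sets on the array and 7 of the 18193 genes represented. The study used 8 Affymetrix mouse 430 2.0 arrays in 4 groups of 2: Rbp2-/- cells and Rbp2f/f cells after 6 days in medium lacking leukemia inhibitory factor (LIF), and Rbp2-/- cells and Rbp2f/f cells in medium with LIF. LIF is a cytokine that holds mouse ES cells in the undifferentiated state, and without it they differentiate. RBP2 was read as the histone H3 lysine 4 demethylase now named Kdm5a, and by the usual notation f/f marks alleles flanked by recombination sites and -/- marks deleted ones. The labels name no clone, parental line or Cre, and do not say whether cells were kept on feeder cells. They call the duplicates biological replicates without saying which cultures they came from, so p-values measure only the spread between these samples, part of which may be technical.

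The apelin receptor is a G protein-coupled receptor of early mesoderm and of growing vessels, and it binds apelin and a second peptide, Apela (also called Elabela or Toddler). CXCR4 is the G protein-coupled receptor that guides migrating cells, endoderm, blood progenitors and germ cells among them, toward CXCL12. The PDGF receptors are tyrosine kinases that dimerise on binding PDGF chains: the alpha receptor marks paraxial and cardiac mesoderm and primitive endoderm, the beta receptor marks pericytes and smooth muscle, and PDGF-A signals through the alpha receptor.

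The stretch just before the start of transcription is shown for Cxcr4, Cxcl12 and Pdgfra, 3 of the genes that rose on LIF withdrawal. It is also shown for Apln, a ligand gene whose level did not pass the test in any comparison. Of the other genes that rose, Aplnr had no matched window and Pdgfrb was left out of the description of sequences. Windows of 250 bases were taken from RefSeq annotation of GRCm38.p6 for 5 of the 7 members, of which Pdgfa had 2 starts. They are written 5' to 3' on the strand of the gene, with CpG dinucleotides in capitals. Capitals were set on CpG after a first search for 3 motifs, described next, had found 0 matches. Cxcr4 lies on the minus strand, with its window at chr1:128592300-128592549.
Cxcr4: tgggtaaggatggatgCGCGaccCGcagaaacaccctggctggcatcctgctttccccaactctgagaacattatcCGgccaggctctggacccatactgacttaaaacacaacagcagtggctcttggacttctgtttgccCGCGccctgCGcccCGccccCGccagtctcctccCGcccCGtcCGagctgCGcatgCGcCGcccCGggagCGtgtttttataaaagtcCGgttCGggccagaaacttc
The Cxcl12 window lies on the plus strand at chr6:117168285-117168534.
Cxcl12: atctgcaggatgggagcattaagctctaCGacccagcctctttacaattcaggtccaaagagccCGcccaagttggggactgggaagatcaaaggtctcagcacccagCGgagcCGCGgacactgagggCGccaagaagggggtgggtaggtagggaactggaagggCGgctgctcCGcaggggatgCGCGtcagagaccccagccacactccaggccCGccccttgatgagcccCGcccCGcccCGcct
The Pdgfra window lies on the plus strand at chr5:75152001-75152250, before an annotated start inside the gene's span.
Pdgfra: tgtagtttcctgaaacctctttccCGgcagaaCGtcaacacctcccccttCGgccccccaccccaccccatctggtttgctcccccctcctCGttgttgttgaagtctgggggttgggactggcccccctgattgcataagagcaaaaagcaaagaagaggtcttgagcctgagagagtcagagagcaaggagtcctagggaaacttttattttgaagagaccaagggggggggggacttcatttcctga
The Apln window lies on the minus strand at chrX:48034854-48035103.
Apln: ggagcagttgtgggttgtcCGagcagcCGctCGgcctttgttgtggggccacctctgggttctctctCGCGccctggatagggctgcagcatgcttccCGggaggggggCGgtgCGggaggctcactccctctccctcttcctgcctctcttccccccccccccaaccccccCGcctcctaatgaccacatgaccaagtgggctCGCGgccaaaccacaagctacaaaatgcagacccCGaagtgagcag
The Cxcr4 window held 19 CpG and was 61.2% G and C. The Cxcl12 window held 14 CpG at 64.4%, and the Apln window 12 CpG at 65.2%. The Pdgfra window stood apart with 4 CpG and 54.4% G and C. Over the 32851 windows in the table the medians were 6 CpG and 52.4%, and 37.8% of windows held fewer CpG than Pdgfra, against 80.3% for Cxcr4. The windows of Pdgfa, which were not among those shown, held 19 and 28 CpG. The letters searched on both strands were ACGTG (one form of the hypoxia response core), AGATAA (recognised by factors of the GATA family) and AGGTGTGA (recognised by T-box factors). They occurred in 16.6%, 9.99% and 1.12% of all windows, and in 0 of the 6 member windows. This says only that these letters were not in these windows. GCGTG, the other form of the hypoxia response core, was searched after the windows had been seen. It occurred in 28.2% of all windows and in 2 of the 6 member windows, that of Cxcr4, 39 to 35 bases before the start, and 1 of Pdgfa.

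Kdm5a, the targeted gene, read 100 and 80.2 in Rbp2-/- cells without LIF against 225.7 and 246.6 in Rbp2f/f cells without LIF. With LIF it read 31.2 and 30.6 in Rbp2-/- cells against 128.2 and 167.2 in Rbp2f/f cells. The log2 difference was -1.79 ± 0.26 with LIF (limma adjusted p = 0.0219, and -1.60 with an adjusted p of 0.0764 after quantile normalization) and -1.25 ± 0.26 without LIF (adjusted p = 0.0878). Trimmed mean intensities were 110.5 to 128.4 on 7 arrays and 77.5 on replicate 2 of Rbp2-/- with LIF. That dim array lowered the median log2 difference of all tested genes to -0.28 for the genotype contrast with LIF and raised it to 0.39 for withdrawal in Rbp2-/- cells. The same median was 0.07 for withdrawal in Rbp2f/f cells and 0.02 for the genotype contrast without LIF. Differences are given as measured, and for the members and several other genes also relative to that median where the shift is over 0.1. Those of the remaining genes include the shift. All intensities are the authors' linear values for the brightest probe set of each gene, and differences are on the log2(intensity + 16) scale with the standard error of the limma fit, which understates the change of dim genes.

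On LIF withdrawal the 3 receptor genes that passed the filter on low values (Aplnr, Cxcr4 and Pdgfrb) and the ligand gene Cxcl12 rose in both genotypes, while the ligand genes Apln and Pdgfa did not pass the test. Thus 4 of the 6 members tested were called higher in Rbp2-/- cells, where 19.6% of all 10916 tested genes were called higher (22.8% in either direction). In Rbp2f/f cells the same 4 of 6 were called higher, beside 13.2% of all tested genes (20% in either direction). Of all tested genes 9% were called higher in both genotypes. The arrays of the 2 media did not overlap for 5 of 6 members in Rbp2-/- cells and 4 of 6 in Rbp2f/f cells, beside 59.5% and 68.2% of all tested genes. With LIF, Cxcr4 and Pdgfrb in both genotypes and Aplnr in Rbp2f/f cells had means under the filter, which equals an intensity of 26.5. These genes passed it through their values without LIF, the direction then called, so filter and calls are not independent. Pdgfra lay just under the filter, with a mean of 5.32 on the log2 scale against a limit of 5.41. In the fit without a filter Pdgfra was called higher in both genotypes, as were Aplnr, Cxcr4, Cxcl12 and Pdgfrb. In that fit 8.17% of 18193 genes were called higher in Rbp2-/- cells and 6.21% in Rbp2f/f cells. These are bulk samples, in which more cells of a type and more RNA per cell cannot be told apart.

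**Figure D1:**
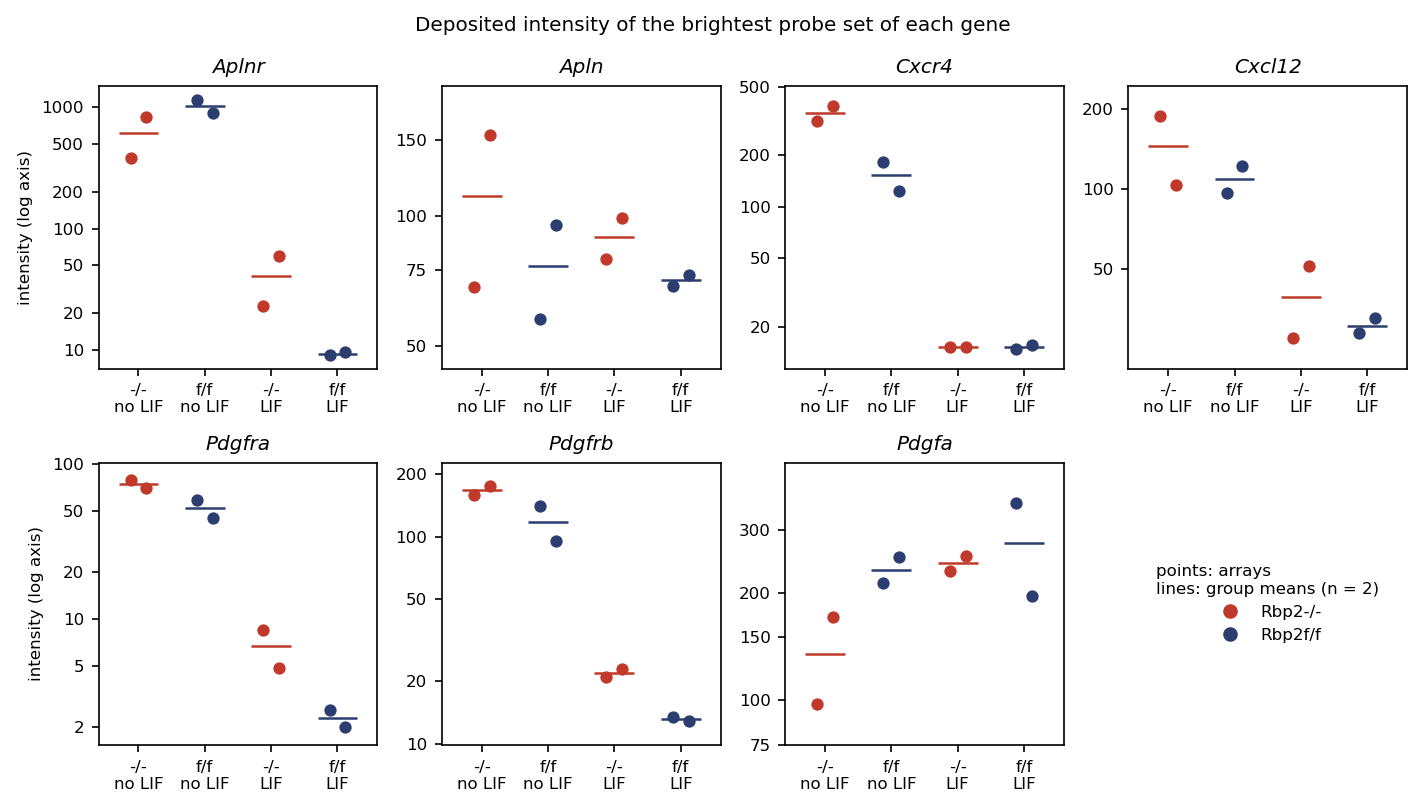
Deposited linear intensity (log axis) of the brightest probe set of each gene, with points for the 8 arrays and lines for the means of the 4 groups (n = 2 each). Aplnr, Cxcr4, Cxcl12, Pdgfra and Pdgfrb are higher on all 4 arrays without LIF than on all 4 with LIF. Apln overlaps between the media in both genotypes, and Pdgfa is lowest in Rbp2-/- cells without LIF.

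Aplnr spanned intensities of 9.1 to 1154.4. Without LIF it read 385.0 and 836.4 in Rbp2-/- cells and 1154.4 and 892.4 in Rbp2f/f cells. With LIF it read 22.8 and 59.0 in Rbp2-/- cells and 9.1 and 9.5 in Rbp2f/f cells. Means were 611 ± 319 in Rbp2-/- and 1023 ± 185 in Rbp2f/f cells without LIF, and 40.9 ± 25.6 in Rbp2-/- and 9.30 ± 0.28 in Rbp2f/f cells with LIF (SD, n = 2 each). The arrays of the 4 groups did not overlap, with Rbp2f/f above Rbp2-/- without LIF and below it with LIF. The withdrawal effect was 3.44 ± 0.37 in Rbp2-/- cells (limma adjusted p = 2.87e-05), and 3.05 once the median of all genes was subtracted. It was 5.35 ± 0.37 in Rbp2f/f cells (adjusted p = 8.15e-07), where Aplnr ranked 3 by p among all tested genes. The dim array carried the higher of the 2 Aplnr values of its group, so its low overall level did not go with a low Aplnr value.

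Apln, the gene for the ligand, did not follow its receptor. It read 68.6 and 153.7 in Rbp2-/- cells without LIF and 57.8 and 95.6 in Rbp2f/f cells without LIF. With LIF it read 79.8 and 99.2 in Rbp2-/- cells and 68.8 and 73.3 in Rbp2f/f cells. Means were 111 in Rbp2-/- cells without LIF, 89.5 in Rbp2-/- cells with LIF, 76.7 in Rbp2f/f cells without LIF and 71.1 in Rbp2f/f cells with LIF. Groups next to each other in this order overlapped. The genotypes overlapped without LIF but not with LIF, where both Rbp2-/- arrays were above both Rbp2f/f arrays. The withdrawal effect was 0.19 ± 0.33 in Rbp2-/- cells (adjusted p = 0.699), or -0.20 after subtracting the median, and 0.06 ± 0.33 in Rbp2f/f cells (adjusted p = 0.928).

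Apela, the second ligand of the receptor, fell in both genotypes. It read 201.1 and 167.7 in Rbp2-/- cells without LIF, against 522 and 460.4 with LIF. In Rbp2f/f cells it read 175.5 and 158.8 without LIF, against 636.3 and 1241.1 with LIF. Every array without LIF was below every array with LIF, opposite to Aplnr. The difference was -1.34 ± 0.31 in Rbp2-/- cells (adjusted p = 0.00712), or -1.73 after subtracting the median, and -2.31 ± 0.31 in Rbp2f/f cells (adjusted p = 0.000139). Of the other apelin partners tested, the peptidase gene Mme rose in Rbp2-/- cells, by 1.14 ± 0.28 (adjusted p = 0.0102, and 0.139 after quantile normalization), and did not pass in Rbp2f/f cells, at 0.18 ± 0.28. Furin, a proprotein convertase, did not pass in either genotype. Agt and Agtr1a, of the related angiotensin system, lay under the filter.

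Cxcr4 was at about the same low level on all 4 arrays with LIF. It read 316.2 and 388.2 in Rbp2-/- cells and 181.1 and 123.5 in Rbp2f/f cells without LIF. With LIF the values were 15.2 and 15.1 in Rbp2-/- cells and 14.8 and 15.6 in Rbp2f/f cells. All were below the 16 added before taking logs. All arrays without LIF were above all arrays with LIF, and both Rbp2-/- arrays without LIF were above both Rbp2f/f arrays without LIF. The withdrawal effect was 3.56 ± 0.27 in Rbp2-/- cells (adjusted p = 3.85e-06), and 3.17 with that median subtracted. It ranked 2 by p among all tested genes. The effect in Rbp2f/f cells was 2.41 ± 0.27 (adjusted p = 3.32e-05). Group means were 352 ± 50.9, 152 ± 40.7, 15.2 ± 0.07 and 15.2 ± 0.57 (SD, n = 2 each) in Rbp2-/- without LIF, Rbp2f/f without LIF, Rbp2-/- with LIF and Rbp2f/f with LIF, of which only the last pair overlapped.

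Cxcl12, the gene for the CXCR4 ligand, read 186.8 and 103.7 in Rbp2-/- cells and 96.5 and 122.3 in Rbp2f/f cells without LIF. With LIF it read 27.7 and 51.5 in Rbp2-/- cells and 28.9 and 32.8 in Rbp2f/f cells. The groups separated by medium on every array, and the genotypes overlapped within each medium. Cxcl12 rose by 1.52 ± 0.31 in Rbp2-/- cells (adjusted p = 0.00345), with 1.14 left above the median, and by 1.41 ± 0.31 in Rbp2f/f cells (adjusted p = 0.00519). The call in Rbp2-/- cells was lost after quantile normalization of the arrays, at 1.11 with an adjusted p of 0.0762, and when replicate 1 without LIF was left out, at 1.14 with an adjusted p of 0.0549. The call in Rbp2f/f cells was lost when replicate 2 without LIF was left out, at 1.27 with an adjusted p of 0.0547.

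Among the CXCR4 partners, 1 of 6 tested genes was called in Rbp2f/f cells and 0 of 6 in Rbp2-/- cells. Beside these, 20% of all tested genes were called in either direction in Rbp2f/f cells and 22.8% in Rbp2-/- cells. The called gene was Cd164, a sialomucin that associates with CXCR4, which rose by 0.96 ± 0.26 (adjusted p = 0.0185). Its difference in Rbp2-/- cells was 0.74 ± 0.26 (adjusted p = 0.0543). Ackr3, the atypical receptor that takes up CXCL12, read 89.2 and 86.1 in Rbp2-/- cells and 84.1 and 70.2 in Rbp2f/f cells without LIF, against 75.9 and 39.5 in Rbp2-/- cells and 82.5 and 61.6 in Rbp2f/f cells with LIF. It did not pass the test (0.54 ± 0.29 in Rbp2-/- cells and 0.09 ± 0.29 in Rbp2f/f cells). Dpp4, the peptidase that trims CXCL12, lay under the filter.

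Pdgfra and Pdgfrb showed the same order of groups. Pdgfra read 78.5 and 70.4 in Rbp2-/- cells and 58.3 and 45.0 in Rbp2f/f cells without LIF. With LIF it read 8.5 and 4.8 in Rbp2-/- cells and 2.6 and 2.0 in Rbp2f/f cells. None of its 4 groups overlapped, but the values with LIF were small against the 16 added before taking logs, and no detection call was used here. In the fit without a filter Pdgfra rose by 2.00 ± 0.25 in Rbp2-/- cells (adjusted p = 0.00304), with 1.62 left above the median, and by 1.88 ± 0.25 in Rbp2f/f cells (adjusted p = 0.00268).

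Pdgfrb read 158.9 and 175.8 in Rbp2-/- cells and 140.8 and 95.4 in Rbp2f/f cells without LIF. With LIF it read 20.9 and 23.0 in Rbp2-/- cells and 13.4 and 12.8 in Rbp2f/f cells. Its groups too did not overlap, with means of 167 ± 11.95 and 118 ± 32.1 without LIF and 22.0 ± 1.49 and 13.1 ± 0.42 with LIF in Rbp2-/- and Rbp2f/f cells (SD, n = 2 each). Pdgfrb rose by 2.27 ± 0.27 in Rbp2-/- cells (adjusted p = 7.03e-05), with 1.89 left above the median, and by 2.18 ± 0.27 in Rbp2f/f cells (adjusted p = 6.93e-05).

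Pdgfa, the ligand gene, was the only member with negative differences in both genotypes as measured. It read 97.3 and 171.7 in Rbp2-/- cells without LIF against 230.4 and 254.3 with LIF. In Rbp2f/f cells it read 213.1 and 251.9 without LIF against 357.3 and 196.3 with LIF. The Rbp2-/- arrays separated by medium and the Rbp2f/f arrays did not. The difference in Rbp2-/- cells was -0.82 ± 0.32 (adjusted p = 0.0758), and -1.21 with the median subtracted, and it passed the threshold after quantile normalization at -1.26 (adjusted p = 0.0278). The value in Rbp2f/f cells was -0.18 ± 0.32 (adjusted p = 0.738).

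**Figure D2:**
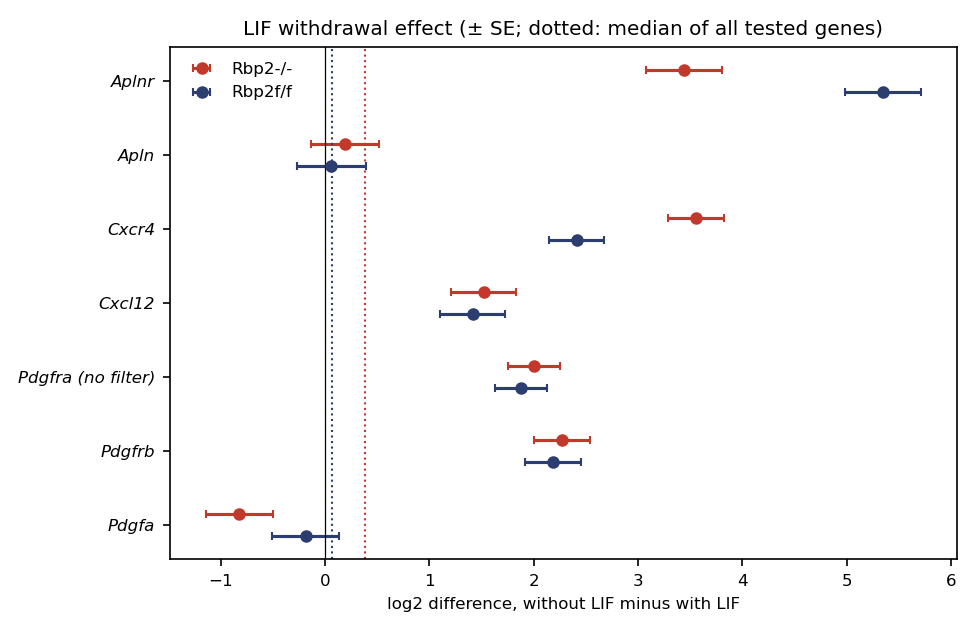
Log2 difference, without LIF minus with LIF, of each gene in Rbp2-/- and Rbp2f/f cells, with the standard error of the limma fit and dotted lines at the median of all tested genes (0.39 and 0.07). Aplnr, Cxcr4, Cxcl12, Pdgfra and Pdgfrb lie right of both medians in both genotypes, Apln lies at them and Pdgfa left of them. Pdgfra comes from the fit without a filter on low values.

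The withdrawal effects of Aplnr and Cxcr4 differed between the genotypes in size, in opposite senses, and neither difference passed the test of the interaction. The interaction, the effect in Rbp2-/- cells minus that in Rbp2f/f cells, was -1.91 ± 0.52 for Aplnr (adjusted p = 0.327) and 1.15 ± 0.38 for Cxcr4 (adjusted p = 0.36). Relative to the median of all genes, which was 0.31, the interaction was -2.22 for Aplnr and 0.84 for Cxcr4. Pdgfa stood at -0.64 ± 0.46, and Apln, Cxcl12, Pdgfrb and Pdgfra lay between 0.09 and 0.13 as measured. Relative to that median Pdgfa was -0.95, and Apln, Cxcl12, Pdgfrb and Pdgfra lay between -0.22 and -0.18. In limma 0 of 6 members passed the adjusted threshold and 2 of 6 had an unadjusted p under 0.05, beside 0% and 11.6% of all tested genes. Without replicate 1 of Rbp2-/- with LIF the Aplnr interaction was -2.39 with an adjusted p of 0.0318, in a fit that called 1439 genes. The dim array is then the lone array of its group, and its spread is assumed to be that of the other groups.

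Between the genotypes no member passed the threshold in either medium. Without LIF 0 of 6 were called, where limma called 0.0275% of all tested genes, and 3 of 6 (Aplnr, Cxcr4 and Pdgfa) had an unadjusted p under 0.05, beside 9.99% of all genes. The arrays of the 2 genotypes did not overlap for 4 of 6, beside 53.3% of all tested genes. The Cxcr4 difference was 1.14 ± 0.27, with a limma adjusted p of 0.128. Aplnr stood at -0.82 ± 0.37 (adjusted p = 0.46) and Pdgfa at -0.76 ± 0.32 (adjusted p = 0.422). Pdgfrb stood at 0.47 ± 0.27 and Pdgfra, in the fit without a filter, at 0.42 ± 0.25, and Apln and Cxcl12 at 0.40 and 0.32 with standard errors of 0.33 and 0.31. The Cxcr4 difference passed the threshold under 3 of 24 alternatives, among them a pseudocount of 64 (adjusted p = 0.0397) and array weights (adjusted p = 0.0153), settings under which 51 and 479 genes were called over the whole array, against 3 as analysed here.

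With LIF 0 of 6 members were called, beside 0.229% of all tested genes, and 1 of 6 (Aplnr) had an unadjusted p under 0.05, beside 17.6%. The genotypes did not overlap for 3 of 6, beside 43.6% of all tested genes. Aplnr was higher in both Rbp2-/- arrays than in both Rbp2f/f arrays, at 1.09 ± 0.37 (adjusted p = 0.178), and 1.37 with the median subtracted. Without replicate 1 of Rbp2-/- with LIF the difference was 1.57 with an adjusted p of 0.0278, and 2445 genes were called in place of 25, with that group again resting on the dim array alone. Pdgfrb stood at 0.38 ± 0.27, Pdgfra at 0.30 ± 0.25 in the fit without a filter, Apln at 0.27 ± 0.33, Cxcl12 at 0.21 ± 0.31, Pdgfa at -0.13 ± 0.32 and Cxcr4 at -0.002 with a standard error of 0.27, all before subtracting the median of -0.28. With that median subtracted the values were 0.66 for Pdgfrb, 0.58 for Pdgfra, 0.55 for Apln, 0.49 for Cxcl12, 0.15 for Pdgfa and 0.28 for Cxcr4. The fit without a filter, which Pdgfra values come from, called 0% of genes in either genotype contrast.

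Averaged over both media, 0 of 6 members were called, beside 0.522% of all tested genes, and 2 of 6 (Cxcr4 and Pdgfrb) had an unadjusted p under 0.05, beside 15.2%. Cxcr4 stood at 0.57 ± 0.19 (limma adjusted p = 0.165) and Pdgfrb at 0.43 ± 0.19 (adjusted p = 0.299). The average for Aplnr, 0.14 ± 0.26, combined a positive difference with LIF and a negative one without. These averages are before subtracting the median of all genes, -0.14, and with it subtracted they were 0.71 for Cxcr4, 0.56 for Pdgfrb and 0.27 for Aplnr.

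**Figure D3:**
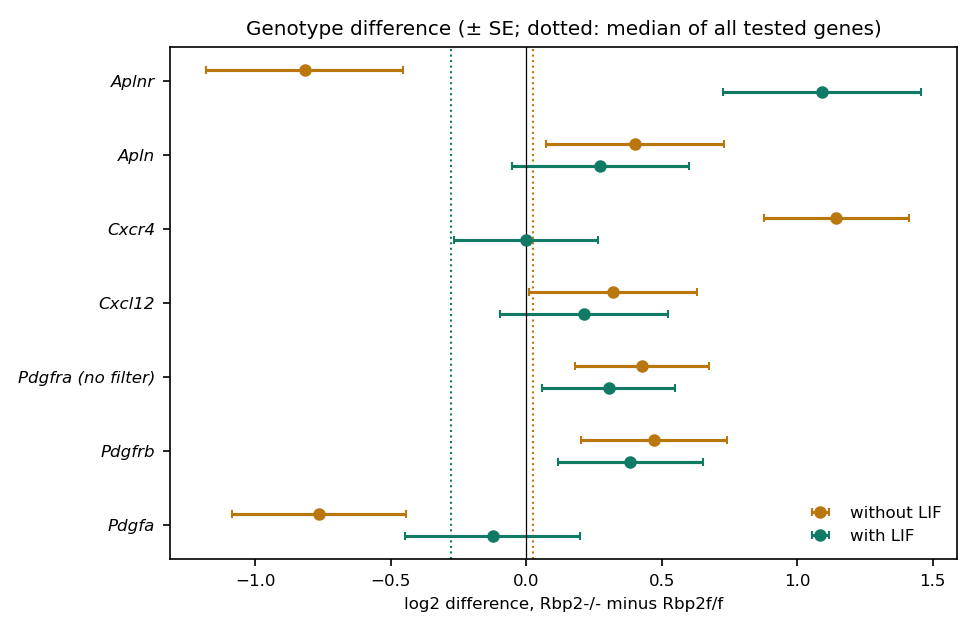
Log2 difference, Rbp2-/- minus Rbp2f/f, of each gene without LIF and with LIF, with the standard error of the limma fit and dotted lines at the median of all tested genes (0.02 and -0.28). Aplnr lies right of 0 with LIF and left of it without LIF, and Cxcr4 lies at 0 with LIF and at 1.14 without. No difference passed the adjusted threshold.

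Several members were measured by more than 1 probe set. Of the 14 probe sets, 11 passed a filter of the same percentile set over probe sets. Tested singly, 8 of them were called higher on withdrawal in Rbp2-/- cells and 7 in Rbp2f/f cells, beside 14.4% and 9.62% of the 20967 probe sets tested. The second Aplnr probe set, 1423037_at, read 89.8 and 161.0 in Rbp2-/- cells and 240.3 and 148.6 in Rbp2f/f cells without LIF, against 5.0 and 18.2 in Rbp2-/- cells and 5.3 and 6.5 in Rbp2f/f cells with LIF. Its withdrawal effects were 2.35 ± 0.34 in Rbp2-/- cells and 3.23 ± 0.34 in Rbp2f/f cells (adjusted p = 0.00116 and 0.000159), in the same direction and with the same larger value in Rbp2f/f cells as the brightest probe set. Unlike the brightest one, it overlapped between the genotypes in both media.

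The second Cxcl12 probe set, 1448823_at, rose by 1.49 ± 0.28 in Rbp2-/- cells and by 1.16 ± 0.28 in Rbp2f/f cells (adjusted p = 0.00473 and 0.0166). It differed from the brightest one in the genotype contrasts: it read 110.7 and 92.6 in Rbp2-/- cells against 123.2 and 142.3 in Rbp2f/f cells without LIF, and 17.5 and 35.8 against 49.4 and 51.6 with LIF. Both Rbp2-/- arrays were below both Rbp2f/f arrays in each medium, where the brightest probe set overlapped. Another, 1439084_at, was at or below 16.4 on every array.

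For Pdgfra, 1421916_at read 32.7 and 45.9 in Rbp2-/- cells and 32.0 and 30.9 in Rbp2f/f cells without LIF, against 13.9 and 13.0 in Rbp2-/- cells and 6.8 and 15.1 in Rbp2f/f cells with LIF. Its withdrawal effect was 0.90 ± 0.28 in Rbp2-/- cells (adjusted p = 0.0446) and 0.83 ± 0.28 in Rbp2f/f cells (adjusted p = 0.0649). The dimmest Pdgfra probe set, 1438946_at, stayed at or below 18.3 and differed in sign between the genotypes. The second Pdgfrb probe set, 1417148_at, was under the filter and read 65.7 and 28.5 in Rbp2-/- cells and 34.5 and 16.4 in Rbp2f/f cells without LIF, against 6.0 and 13.0 in Rbp2-/- cells and 1.5 and 1.0 in Rbp2f/f cells with LIF. Its differences, 1.26 and 1.23, had the direction of the brightest one. The pair of Pdgfa probe sets gave -0.82 and -0.48 in Rbp2-/- cells and -0.18 and -0.04 in Rbp2f/f cells, with none called.

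**Figure D4:**
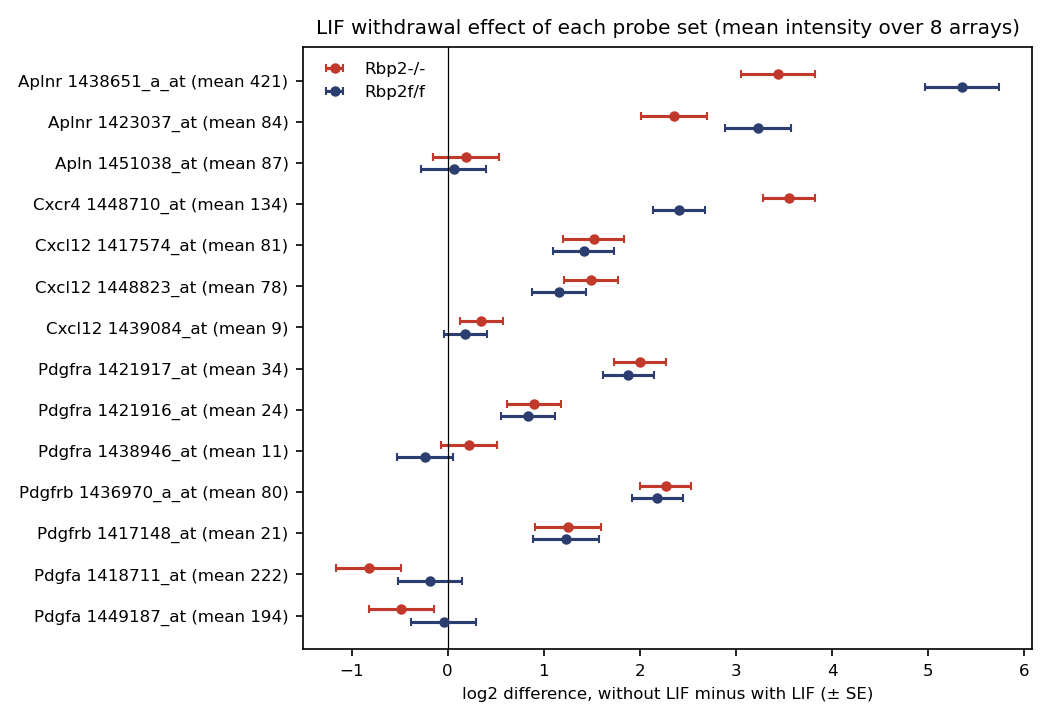
Log2 difference, without LIF minus with LIF, of all 14 probe sets in Rbp2-/- and Rbp2f/f cells, with standard errors of the fit on single probe sets, and the mean intensity over 8 arrays beside each name. Brighter probe sets of Aplnr, Cxcl12, Pdgfra and Pdgfrb lie right of 0 in both genotypes, and the dimmest of Cxcl12 and Pdgfra lie near 0.

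Genes that act with the members were followed in 5 lists: partners of the apelin, CXCR4 and PDGF systems, related VEGF and KIT receptors with their ligands, and G protein signalling. Of 68 genes 65 were measured and 54 tested. On withdrawal 15 were called higher and 1 lower in Rbp2-/- cells, 27.8% and 1.85% of those tested, beside 19.6% and 3.2% of all tested genes. Their median was 0.58, against 0.39 over all genes. After quantile normalization the list counts were 8 and 1, with 14.8% called higher beside 7.26% of all tested genes. The 7 genes that lost their call in Rbp2-/- cells under it were Mme, Ptpn11, Pik3ca, Kitl, Vegfa, Gnai3 and Rgs3. In Rbp2f/f cells 15 were called higher and 2 lower, 27.8% and 3.7%, beside 13.2% and 6.8% of all tested genes, with a median of 0.42 against 0.07 over all genes. The counts there were 18 and 3 after quantile normalization, with 33.3% called higher beside 13.8% of all tested genes. No gene called higher in Rbp2f/f cells lost its call under it. The counts of single lists given next are small and are read against the same shares of all tested genes. The genes called in both genotypes were Nrp1, Lrp1, Kdr, Kitl, Rgs3 and Ptpn11, all higher, and Apela, lower. These 6 higher are 11.1% of those tested, close to the 9% of all tested genes, and Kitl, Rgs3 and Ptpn11 are among those that lost their call in Rbp2-/- cells after quantile normalization, at 0.52, 0.67 and 0.54 (adjusted p = 0.189, 0.109 and 0.0554).

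Of the PDGF partners, 5 of 16 tested genes were called higher in Rbp2-/- cells and 8 of 16 in Rbp2f/f cells, and 0 lower. Nrp1, a co-receptor that binds VEGF and PDGF, read 320.6 and 468.7 in Rbp2-/- cells and 361.8 and 242.8 in Rbp2f/f cells without LIF, against 29 and 68.3 in Rbp2-/- cells and 67.2 and 10 in Rbp2f/f cells with LIF. It rose by 2.71 ± 0.45 in Rbp2-/- cells and 2.75 ± 0.45 in Rbp2f/f cells (adjusted p = 0.000824 and 0.000622). Lrp1, an endocytic receptor that associates with PDGF receptor beta, rose by 1.99 ± 0.33 in Rbp2-/- cells and 1.87 ± 0.33 in Rbp2f/f cells. The phosphatase gene Ptpn11, whose product SHP2 binds the activated receptors, rose by 0.90 ± 0.25 in Rbp2-/- cells and 0.78 ± 0.25 in Rbp2f/f cells. With the median of all genes subtracted, Nrp1 was 2.33 in Rbp2-/- cells and 2.68 in Rbp2f/f cells. On that scale Lrp1 was 1.60 and 1.80 and Ptpn11 0.52 and 0.71, in the same order, so Rbp2f/f cells then had the larger values.

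Pdgfb and Plat were called higher in Rbp2f/f cells. Pdgfb, which encodes the chain that binds both PDGF receptors, read 91.6 and 152.4 in Rbp2-/- cells and 142.8 and 244 in Rbp2f/f cells without LIF, against 51.1 and 64.1 in Rbp2-/- cells and 82 and 55.2 in Rbp2f/f cells with LIF. It rose by 1.28 ± 0.31 in Rbp2f/f cells (adjusted p = 0.01) and stood at 0.88 ± 0.31 in Rbp2-/- cells (adjusted p = 0.0559). Plat, the protease that activates PDGF-C, rose by 1.65 ± 0.32 in Rbp2f/f cells (adjusted p = 0.00243) and stood at 0.47 ± 0.32 in Rbp2-/- cells. Pdgfc itself did not pass in either genotype (-0.23 ± 0.34 in Rbp2-/- cells and -0.46 ± 0.34 in Rbp2f/f cells), and Pdgfd lay under the filter. Pdgfrl, Src and Sparc, a matrix protein that binds PDGF, were also called higher in Rbp2f/f cells, and the lipid kinase gene Pik3ca and the phospholipase gene Plcg1 in Rbp2-/- cells. Whether these genes differed between the genotypes in their response was tested by the interaction, which called 0 of the 54 (0 of all tested genes).

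Of the VEGF and KIT group, 5 of 11 tested genes were called higher in Rbp2-/- cells and 3 of 11 in Rbp2f/f cells. Kdr, the VEGF receptor of vascular and blood progenitors, read 153.4 and 333 in Rbp2-/- cells and 160.1 and 115.7 in Rbp2f/f cells without LIF, against 59.8 and 46.9 in Rbp2-/- cells and 65 and 26 in Rbp2f/f cells with LIF. It rose by 1.82 ± 0.36 in Rbp2-/- cells and 1.39 ± 0.36 in Rbp2f/f cells (adjusted p = 0.00305 and 0.0147). Flt1, the other VEGF-A receptor, was the only gene of the 5 lists called between the genotypes with LIF. It read 7.2 and 5.9 in Rbp2-/- cells against 44.9 and 54 in Rbp2f/f cells with LIF, a difference of -1.53 ± 0.27 (adjusted p = 0.0283, and 0.0764 after quantile normalization), where 0.165% of all tested genes were called lower. Without LIF it read 79.4 and 84.6 in Rbp2-/- cells and 73.6 and 102 in Rbp2f/f cells, which overlapped. On withdrawal Flt1 rose by 2.12 ± 0.27 in Rbp2-/- cells (adjusted p = 0.000118) and stood at 0.655 ± 0.268 in Rbp2f/f cells (limma adjusted p = 0.0989). Its Rbp2-/- values with LIF, on which both calls rest, were below the 16 added before taking logs. The ligand genes Vegfa and Vegfb were called higher in Rbp2-/- cells, at 1.25 ± 0.33 and 1.54 ± 0.34 (adjusted p = 0.0143 and 0.00576), and stood at 0.43 ± 0.33 and 0.36 ± 0.34 in Rbp2f/f cells. Kitl, the KIT ligand gene, rose by 0.96 ± 0.26 in Rbp2-/- cells and by 2.28 ± 0.26 in Rbp2f/f cells. Csf1, a cytokine gene of macrophage growth, rose by 1.56 ± 0.33 in Rbp2f/f cells (adjusted p = 0.00438) and stood at 0.59 ± 0.33 in Rbp2-/- cells.

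Of the G protein signalling genes, 4 of 18 tested were called higher in Rbp2-/- cells, and 3 higher and 1 lower in Rbp2f/f cells. Rgs3, a negative regulator of G protein signalling, was called in both genotypes (1.11 in Rbp2-/- cells and 1.10 in Rbp2f/f cells, each ± 0.26), with the call in Rbp2-/- cells lost after quantile normalization, and Gnai2, Gnai3 and Arrb1 passed in Rbp2-/- cells. The threshold was met in Rbp2f/f cells by Gna11 and Rgs12 upward and by Arrb2, the arrestin gene, downward (-1.15 ± 0.35, adjusted p = 0.0312). Gnai1, which encodes an inhibitory G protein alpha subunit, was the gene of the 5 lists called between the genotypes averaged over both media. It read 145.6 and 257.6 in Rbp2-/- cells against 326.7 and 468.8 in Rbp2f/f cells without LIF, and 149.6 and 153.6 in Rbp2-/- cells against 353.1 and 441 in Rbp2f/f cells with LIF. Both Rbp2-/- arrays were below both Rbp2f/f arrays in each medium. The averaged difference was -1.12 ± 0.22 (adjusted p = 0.0373, and 0.0757 after quantile normalization), where 0.522% of all tested genes were called.

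**Figure D5:**
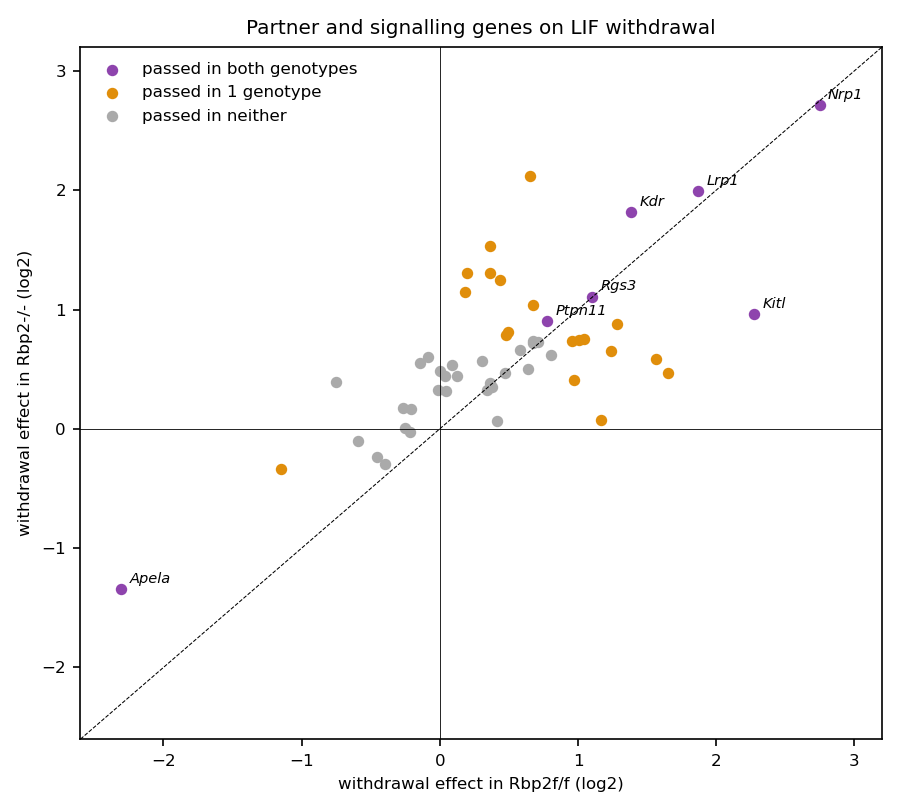
Withdrawal effect (log2, without LIF minus with LIF) in Rbp2-/- cells on the vertical axis against that in Rbp2f/f cells on the horizontal axis for partner and signalling genes, coloured by whether limma called them in both genotypes, in 1 or in neither. The 7 genes called in both are named. Nrp1 and Lrp1 lie at the upper right and Apela at the lower left, and the dashed line marks equal effects as measured. The medians of all tested genes, 0.39 in Rbp2-/- cells and 0.07 in Rbp2f/f cells, were not subtracted.

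Markers of cell types that the cultures could hold were followed on the same arrays. Counts called in these small lists are read against the shares of all tested genes in Rbp2-/- and Rbp2f/f cells. Those were 19.6% and 13.2% called higher and 3.2% and 6.8% called lower. After quantile normalization 7.26% and 13.8% were called higher. All 7 ES cell markers were called lower on withdrawal in both genotypes, and their summed intensity was 1022.4 and 1233 in Rbp2-/- cells and 1484.6 and 1554 in Rbp2f/f cells without LIF, against 10270.2 and 5350 in Rbp2-/- cells and 9685.1 and 10197.3 in Rbp2f/f cells with LIF. The lower ES value with LIF belonged to the dim array, which also had the higher Aplnr value of its group. Nascent mesoderm markers (3 of 4 measured: Mesp1, Eomes and Mixl1) summed to 339.4 and 2142.4 in Rbp2-/- cells and 1015.2 and 1447.2 in Rbp2f/f cells without LIF, against 255.3 and 300.4 in Rbp2-/- cells and 122.2 and 146.5 in Rbp2f/f cells with LIF. Of the 3 tested, 2 were called higher in Rbp2-/- cells and 3 in Rbp2f/f cells, and 0 and 2 after quantile normalization. Replicate 1 of Rbp2-/- without LIF was the lowest array of its medium, as it was for Aplnr. Lateral and cardiac mesoderm markers (6 of 6) summed to 4313.7 and 2624.7 in Rbp2-/- cells and 1552.9 and 761.7 in Rbp2f/f cells without LIF, against 501.6 and 197.7 in Rbp2-/- cells and 266.1 and 178.1 in Rbp2f/f cells with LIF. Of 5 tested, 4 were called higher in Rbp2-/- cells and 3 in Rbp2f/f cells. Hand1 gave most of the sum without LIF, at 3567 and 1868.5 in Rbp2-/- cells and 1111 and 490.7 in Rbp2f/f cells. Hand2, Foxf1, Isl1 and Tbx20 also separated the media, while Nkx2-5 overlapped (24.5 to 42.4 without LIF and 28.2 to 51.1 with LIF). The sum without LIF placed both Rbp2-/- arrays above both Rbp2f/f arrays, as for Cxcr4. In that medium the genotypes did not overlap for 53.3% of all tested genes, in either direction.

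Fibroblast markers of feeder cells (10 of 10) summed to 4183.7 and 1639.7 in Rbp2-/- cells and 1811.8 and 1759.9 in Rbp2f/f cells without LIF, against 906.9 and 666.9 in Rbp2-/- cells and 683.5 and 399 in Rbp2f/f cells with LIF. Of 8 tested, 4 were called higher in Rbp2-/- cells and 6 in Rbp2f/f cells, and 1 and 5 after quantile normalization. Col1a1 gave 2811.2 of the highest sum, against 515.2 to 716.1 on the other arrays without LIF. Col1a2, Thy1, Dcn and S100a4 overlapped between the media, and the other genes of the list did not. Extraembryonic endoderm markers (8 of 8) summed to 2278 to 3389.9 on the 4 arrays without LIF and 682.6 to 1338.9 on the 4 with LIF. Col4a1, a basement membrane collagen gene that other cells also express, gave most of that sum, with 1448.3 to 2595.5 without LIF. Of 7 tested, 5 were called higher in Rbp2-/- cells and 6 in Rbp2f/f cells, while Lama1 (60.2 to 124.4 without LIF and 56.6 to 128.8 with LIF) and Sox7 (5.4 to 19.3 and 11.4 to 17.5) overlapped between the media. The mural and smooth muscle sum overlapped between the media, at 3805.5 to 11423.6 without LIF and 2507.3 to 5983.5 with LIF, with 1 of 5 tested genes called higher in Rbp2-/- cells and 2 of 5 in Rbp2f/f cells. Acta2 and Tagln gave most of that sum, and they and Cnn1 overlapped between the media. Acta2 read 1445.7 to 5855.2 without LIF and 1017.1 to 3596.1 with LIF. Rgs5, a pericyte gene of that list, did separate the media, with 155.1 to 434.9 without LIF and 5.6 to 30.1 with LIF. Des separated them too, with 76.6 to 91.9 without LIF and 8 to 73 with LIF. Cspg4, another pericyte gene, lay under the filter and overlapped, with 4.9 to 34.9 without LIF and 4.9 to 26.7 with LIF. The endothelial sum was 70.9 to 82.6 without LIF, below the 110 to 239.2 with LIF, and Tie1, a defining endothelial gene, reached at most 3.7 on any array. Esam, at 8.9 to 32 without LIF and 39.7 to 117.5 with LIF, was the endothelial gene tested, called lower in Rbp2-/- cells, and the other 5 lay under the filter. Cdh5 overlapped between the media (16.4 to 22.4 without LIF and 3.3 to 27.3 with LIF). Myh11, which defines mature smooth muscle, reached at most 7. No marker was listed at 0 on any array, and the part of any of these cell types in the members' differences was not tested.

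The tested genes whose pattern was most like each member were found by Pearson correlation of log2 values over the 8 arrays, after subtracting each array's median. These values are a description of 8 points that share the contrast of media and 4 group means. Aplnr was most like Gpsm1 (0.995), Nfat5 (0.994) and Usp18 (0.990), and Cxcr4 most like Eola1 (0.989), Foxf1 (0.989) and Greb1l (0.988). Foxf1, a transcription factor of lateral mesoderm, read 360.2 and 401.4 in Rbp2-/- cells and 232.7 and 96.8 in Rbp2f/f cells without LIF, against 22.6 and 22.6 in Rbp2-/- cells and 27.1 and 19.6 in Rbp2f/f cells with LIF. The receptor gene nearest to Pdgfra was Pdgfrb (0.994), followed by Hmgb3 (0.994) and Rgs5 (0.992), a regulator of G protein signalling known from pericytes. Pdgfrb was itself most like Cdh11 (0.992), a mesenchymal cadherin, Magi3 and Fbn2. Cxcl12 was most like Ttc23 (0.981), Apln most like Prss32 and C1galt1 (0.942 each) and Pdgfa most like Armc5 (0.984). Among the members themselves Cxcr4 and Pdgfrb correlated at 0.978 and Aplnr and Pdgfrb at 0.945, whereas Apln lay between -0.04 and 0.28 with every other tested member.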

How the data were processed

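RNA of 8 samples was hybridised to Affymetrix mouse 430 2.0 arrays. Per the labels' protocols, column-purified, DNase-treated RNA (6 ug) served to make biotinylated cRNA. The authors deposited linear intensities, already summarised to 1 value per probe set. The sources used here do not give their software, background correction or scaling target. Probe sets were named from the platform's annotation table, and 34945 had 1 gene symbol. A gene's value was that of the probe set brightest by mean log2(intensity + 16), and genes at or above the 40th percentile of that mean were tested (10916 of 18193). The 4 group means were fitted over all 8 arrays with limma 3.58.1 in R 4.3.3 (eBayes with trend, 4 residual and 11.2 prior degrees of freedom). P-values are two-sided and Benjamini-Hochberg adjusted over all genes tested, with calls at an adjusted p under 0.05. The pipeline was tested on simulated data. Pdgfra fell under the filter, so its values come from the fit without one. The named genes were the 7 members, Kdm5a, every called gene of the 5 pathway lists and otherwise up to 4 of a list with the smallest p, and the 3 genes most like each member; Pdgfc, genes under the filter and single markers were named after their values were seen. The members, lists and tests were chosen with earlier results of these data known, and the promoter sequences are from RefSeq. Protein sequences were not analysed here. Alternatives covered scaling, filter, pseudocount, variance model, probe set summary, threshold, replicate block and leaving out each array. The number of arrays limits the precision.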

Additional observations from a re-analysis of the deposited data

Results flagged for a closer look

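The genotype difference of Aplnr took opposite signs in the 2 media on every array, but its Rbp2f/f values with LIF were low. Without LIF both Rbp2-/- arrays (385.0 and 836.4) were below both Rbp2f/f arrays (1154.4 and 892.4), and with LIF both Rbp2-/- arrays (22.8 and 59.0) were above both Rbp2f/f arrays (9.1 and 9.5). The interaction on the log2 scale was -1.91 ± 0.52 with a limma adjusted p of 0.327, and over all alternatives it lay between -2.71 and -1.26 with adjusted p-values from 0.0318 to 0.744. It passed the threshold under 1 of 25 alternatives, the one without replicate 1 of Rbp2-/- with LIF, where the dim array alone stands for its group and its spread is assumed to be that of the other groups. The second Aplnr probe set overlapped between the genotypes in both media.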

How the results depend on the processing

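With 2 arrays per group, leaving out 1 array often decides a call. Over 25 alternatives, the withdrawal effects of Aplnr, Cxcr4, Pdgfrb and Pdgfra kept their direction and their call in every one that gave a value (log2 2.62 to 3.98, 2.39 to 4.44, 1.43 to 2.88 and 0.97 to 3.34 in Rbp2-/- cells, and 3.88 to 6.62, 1.44 to 3.22, 1.23 to 3.05 and 0.80 to 3.99 in Rbp2f/f cells). The number of members called on withdrawal was 4 in each genotype and 1 to 5 over all alternatives. It was 1 of the 2 members left under a filter at the 60th percentile, and 3 to 4 when an array was left out. After quantile normalization 3 members were called higher and 1 lower in Rbp2-/- cells, and 4 higher in Rbp2f/f cells. Called members between genotypes without LIF were 1 (Cxcr4) with a pseudocount of 64, with array weights and with the replicate block (adjusted p = 0.042), and 0 in the leave-one-out fits. With LIF and for the interaction the leave-one-out fits called 0 to 1 members, with Aplnr called without replicate 1 of Rbp2-/- with LIF, when the dim array is the lone array of its group. Same-numbered samples deviated together at correlations of -0.084 to 0.259, so the numbers were not taken to pair samples. The replicate block called 140 genes between genotypes with LIF, 149 without LIF, 233 averaged and 9 for the interaction, against 25, 3, 57 and 0 without it, and changed no other member's call, while Kdm5a without LIF was called with it (adjusted p = 0.0205). Over all alternatives the genes called numbered 0 to 2445 between genotypes with LIF, 0 to 479 without LIF, 1001 to 4520 for withdrawal in Rbp2-/- cells (2486 as analysed), 855 to 3664 in Rbp2f/f cells (2188), 0 to 1439 for the interaction and 0 to 702 averaged. Cxcl12 withdrawal in Rbp2-/- cells was 1.11 (adjusted p = 0.0825) with quantile normalization and the replicate block together and 1.10 (adjusted p = 0.0797) with median centring, below the threshold in both. Pdgfa in Rbp2-/- cells passed with median centring (-1.25) and with quantile normalization and the block together (adjusted p = 0.0302).

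None of the 53 results with a turned sign among 1008 was called, and the cause was not tested. With quantile normalization, alone or with the replicate block, the values were 0.12 for Cxcr4 and 0.18 for Pdgfa between genotypes with LIF, -0.27 and -0.074 for Apln withdrawal in Rbp2-/- and Rbp2f/f cells, and -0.19, -0.17 and -0.10 for the interactions of Apln, Cxcl12 and Pdgfrb. With median centring they were 0.28 for Cxcr4, 0.16 for Pdgfa, -0.24 and -0.11 for Apln withdrawal in the same order, and -0.13, -0.15, -0.14 and -0.17 for the interactions of Apln, Cxcl12, Pdgfra and Pdgfrb. The mean of probe sets gave Cxcl12 -0.22 with LIF, -0.018 without LIF and -0.12 averaged, and Aplnr -0.0051 averaged. A pseudocount of 1 gave interactions of -0.65 for Pdgfra and -0.18 for Pdgfrb, and a pseudocount of 64 gave Aplnr -0.13 averaged. Quantile normalization without the dim array, chosen after seeing the data, gave 0.057 for Cxcr4 and -0.026 for Cxcl12 with LIF, -0.074 for Apln withdrawal in Rbp2f/f cells, -0.092 for the Pdgfra interaction and -0.093 for Aplnr averaged. Leaving out single arrays gave, with LIF, -0.021 to 0.016 for Cxcr4, -0.10 to 0.53 for Cxcl12 and -0.53 to 0.28 for Pdgfa, and without LIF -0.059 to 0.70 for Cxcl12 and -0.10 to 0.90 for Apln. For withdrawal it gave Apln -0.31 to 0.69 in Rbp2-/- cells and -0.24 to 0.36 in Rbp2f/f cells, and Pdgfa -0.59 to 0.22 in Rbp2f/f cells. For the interaction it gave -0.37 to 0.63 for Apln, -0.27 to 0.49 for Cxcl12, -0.021 to 0.26 for Pdgfra and -0.16 to 0.33 for Pdgfrb, and averaged -0.14 to 0.41 for Aplnr.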
